A study of Mus musculus with 8 samples.

Results

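Amino acids that are not used for protein are broken down by chains of enzymes, most of them in the mitochondrial matrix. The 33 genes described here encode steps of that breakdown: the branched-chain amino acids leucine, isoleucine and valine, propionyl-CoA, ketone bodies, proline, lysine, the methylated glycines, and the sulfur amino acids with the sulfide they release. The rule that picks them is a list of enzyme symbols and uses no measured value, but the list was drawn up with earlier results of these data known. All 33 have a row among the 24060 gene symbols of each file. Not every product lies in mitochondria: as background, the Bcat1, Cbs and Cth enzymes are cytosolic, Pipox is peroxisomal, and Mpst is found in cytosol and mitochondria.

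In textbook terms, a branched-chain amino acid first passes its amino group to a keto acid acceptor, which in brain links it to the making of glutamate. The branched-chain keto acid dehydrogenase then commits the carbon skeleton to oxidation, and separate branches end in acetyl-CoA, acetoacetate or propionyl-CoA. Astrocytes are the brain's main site of glutamine synthesis, which draws on amino groups passed between such amino acids.

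The data come from the cortex of 4 mice of about 80 postnatal days, males and females, hemizygous for Aldh1l1-creERT2 and heterozygous for Ribotag. In such animals a Cre recombinase that depends on tamoxifen, driven by the astrocyte gene Aldh1l1, switches the ribosomal protein gene Rpl22 to a form with a hemagglutinin (HA) tag. For each animal, RNA of the cleared lysate was sequenced as input and RNA pulled down with the tagged ribosomes as HA IP. Both groups thus share animals and genotype, and both are polyA-selected; none of the 8 libraries comes from untagged animals. The animals carry the numbers 579, 580, 581 and 595; which were male, and how Cre was induced, are not given in the labels.

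The 8 libraries held 33834388 to 53625125 fragments (read pairs). Values are FPKM, in which fragments are corrected for the length of the gene and the depth of the library. Fold changes were fitted with limma on log2(FPKM + 0.1) after trimmed mean of M-values (TMM) scaling, which moved HA IP against input by 0.84 upward. A change counts as a call at a Benjamini-Hochberg adjusted p under 0.05 over 15605 genes. The scaling matters because the median gene stood at 0.01 with it and at -0.75 without it, so both scales are given where they differ in sign. Unless said otherwise, FPKM below are as deposited and fold changes are after scaling. A fold is thus not the ratio of the FPKM printed beside it. Aldh1l1 itself had a log2 fold change of 5.05 (SE 0.08). All 10 astrocyte markers were higher in HA IP, with summed levels of 5755 to 6037 CPM (counts corrected for library size) in input and 48210 to 51173 in HA IP. Markers of neurons (8 of 8), oligodendrocytes (6 of 6), oligodendrocyte precursors (3 of 3), microglia (6 of 6) and endothelium (4 of 4) were lower, as were 3 of 4 mural and 2 of 3 fibroblast markers. Of 3 ependymal markers only 2 were tested, of which 1 was higher and 1 lower. The mural marker Kcnj8 and the ependymal marker Ccdc153 reached the minimum for testing only in input, so they could be tested only as higher there. None was at 0 in all HA IP libraries. The summed neuronal markers were at 279 to 350 CPM there, against 7551 to 8477 CPM in input. In bulk samples of this kind, fewer cells of a type and less RNA per cell cannot be told apart, and the part of the other cell types in the results below was not tested.

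Nearly the whole set was higher on astrocyte ribosomes. Of the 33 genes, 31 rose and 2 fell, beside 42.1% and 41.2% of all genes tested. Of the 2 that fell, Dmgdh reached the minimum for testing in input alone and had to differ, so its call is no support; the other 32 reached it in both groups. At least 2-fold rises were seen for 30 of them and falls for 2, beside 25.6% and 27.2% of all genes. With the animals as a block the counts stayed at 31 and 2, beside 43.0% and 42.3% of all genes. The log2 fold changes ran from -3.17 for Bcat1 to 4.69 for Cbs, with a median of 2.68. Of the 33, 13 had a log2 fold change of at least 3, and 6 had one of at least 4: Cbs, Prodh, Aass, Sardh, Cth and Bckdha. Without the scaling 30 genes rose and 3 fell, beside 23.3% and 61.6% of all genes, and the median was 1.84. The gene that changed side was Auh. In deposited FPKM the 4 HA IP libraries lay wholly above the 4 input libraries for 30 members and wholly below for 3, beside 22.0% and 59.0% of all genes. For Dmgdh, among the 3, the filter set that outcome. After scaling these counts were 30 and 2, beside 40.1% and 38.5%.

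**Figure D1:**
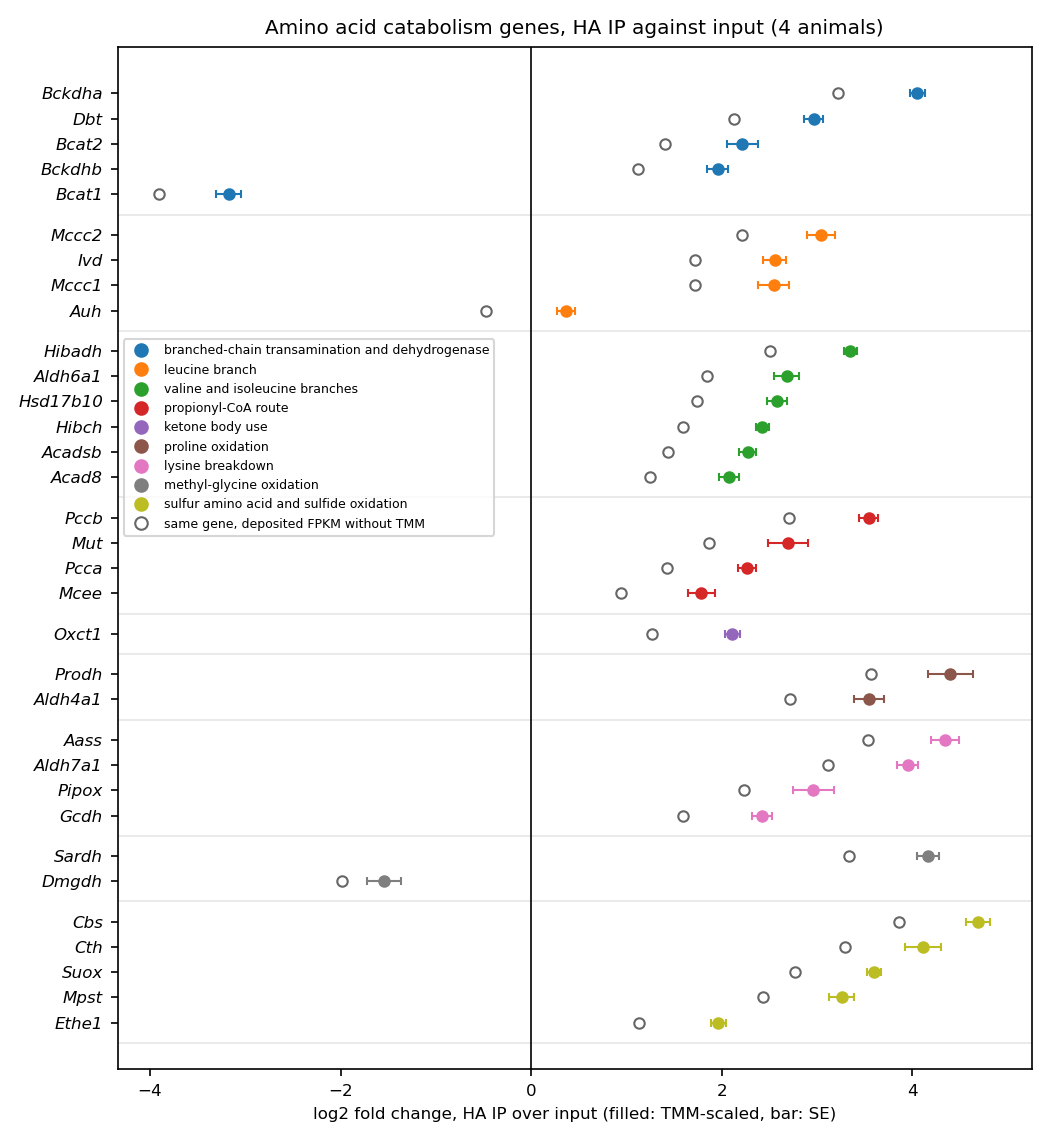
Log2 fold change of HA IP over input for each of the 33 genes, by role. Filled points are the limma estimates after TMM scaling with their SE (4 libraries a group), and open circles the same genes on the deposited scale; Bcat1 and Dmgdh lie left of 0 on both scales and Auh lies on either side.

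The entry to branched-chain amino acid breakdown divided by isozyme. Bcat1 and Bcat2 encode the cytosolic and the mitochondrial aminotransferase, which carry out the same reversible reaction. Bcat1 (chr6:144993835-145076157) had 5.37, 5.50, 5.72 and 5.61 FPKM in the inputs of animals 579, 580, 581 and 595, and 0.261, 0.226, 0.269 and 0.366 FPKM in the HA IP libraries. All 4 HA IP values were far below all inputs. The log2 fold change after scaling was -3.17 (SE 0.13, adjusted p = 8.76e-09), or 9.03-fold lower, and -3.90 on the deposited scale. Bcat2 (chr7:45568967-45589710) moved the other way, with 2.15, 2.06, 1.66 and 1.98 FPKM in input and 5.43, 6.85, 4.23 and 5.15 FPKM in HA IP. The groups again did not overlap, and Bcat2 rose by 2.21 (SE 0.16, adjusted p = 5.17e-07). Within a library, the log2 ratio of Bcat1 to Bcat2 went from 1.46 ± 0.19 in input to -3.85 ± 0.42 in HA IP (SD, n = 4), a difference of -5.31 (exact permutation test, two-sided, adjusted p = 0.0408 over 10 pairs). The difference was between -5.79 and -4.95 in the 4 animals. With a pseudocount of 1, the log2 fold change of Bcat1 was -1.91 and the difference -3.46, both still past the threshold.

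The window upstream of Bcat1 is shown because this gene fell against the rest of the set. It holds the 250 bases before the outer of 2 starts that the RefSeq table lists (GRCm38.p6), on the gene's strand, and that start is the edge of the gene's span. Capitals mark matches, on either strand, to 5 motifs: the GC box GGGCGG, the CCAAT box CCAAT, the TATA box TATAAA, the E-box CACGTG, and AAGGTCA, the site of estrogen-related receptors.
Bcat1: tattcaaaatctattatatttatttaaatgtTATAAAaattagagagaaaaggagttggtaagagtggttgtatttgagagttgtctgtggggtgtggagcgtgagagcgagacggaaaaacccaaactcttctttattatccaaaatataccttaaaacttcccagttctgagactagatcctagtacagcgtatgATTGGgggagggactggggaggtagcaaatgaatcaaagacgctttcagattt
The Bcat1 window (chr6:145076158-145076407, minus strand) had 1 TATA box match and 1 CCAAT match, at a GC content of 37.6%. The TATA box match lies near the outer end of the window, far from the start, and whether it acts as a TATA box was not tested. Over all 32851 RefSeq windows, 12.4% held a TATA box match and 33.8% a CCAAT match, and none of the 5 motifs contains another. The libraries do not show which start was used.

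At the committed step Bckdha, Bckdhb and Dbt were higher, beside 42.1% of all genes tested that rose. Bckdha and Bckdhb encode the alpha and beta subunits of the decarboxylase component of the branched-chain keto acid dehydrogenase, and Dbt its transacylase core. The remaining component, encoded by Dld, is not among the 33 genes and is counted below with the regulators and carriers. Dld rose by 1.26 (SE 0.08), or 0.42 on the deposited scale. Bckdha had 16.8, 15.1, 15.6 and 16.1 FPKM in input and 154, 160, 136 and 144 FPKM in HA IP, a rise of 4.05 (SE 0.08, adjusted p = 2.18e-10). It stood above 98.9% of all genes tested by fold change. Dbt rose by 2.96 (SE 0.10), from 6.58 ± 0.68 to 29.1 ± 2.9 FPKM (SD, n = 4). Bckdhb rose less, by 1.96 (SE 0.11), with 13.9, 14.5, 11.6 and 13.2 FPKM in input and 30.04, 24.7, 34.9 and 27.4 FPKM in HA IP. The log2 ratio of Bckdha to Bckdhb was 2.09 higher in HA IP (1.55 to 2.63 in the 4 animals; exact permutation test, adjusted p = 0.0408).

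Within the leucine branch 3 genes rose on both scales, and the hydratase gene Auh changed side with the scaling. Of all genes tested, 42.1% rose with the scaling and 23.3% without it. Ivd encodes isovaleryl-CoA dehydrogenase, Mccc1 and Mccc2 the biotin-bearing and the carboxyltransferase subunits of methylcrotonyl-CoA carboxylase, and Auh the methylglutaconyl-CoA hydratase, a protein that also binds AU-rich RNA. Ivd rose by 2.56 (SE 0.12), Mccc1 by 2.55 (SE 0.16) and Mccc2 by 3.04 (SE 0.14). Among the 33 genes, the fold change of Mccc1 differed most between animals, with 31.3 FPKM in the HA IP library of animal 579 and 18.1 to 22.5 in the others. The log2 ratio of Mccc1 to Mccc2 differed by -0.49 between HA IP and input (exact permutation test, adjusted p = 0.0408). This small difference had the same direction in 4 of 4 animals, at -0.66 to -0.13. Auh had 32.7, 36.3, 29.3 and 30.3 FPKM in input and 23.9, 25.5, 20.4 and 22.7 FPKM in HA IP. Every HA IP value lay below every input on that scale, with a log2 fold change of -0.47 (adjusted p = 7.28e-04). After TMM scaling the groups overlapped and the sign turned, to 0.36 (SE 0.10, adjusted p = 0.00627). By log2 fold change, Auh ranked below all other members except the 2 that fell.

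All 6 genes of the valine and isoleucine branches rose, within a narrow range of 2.08 to 3.35, beside 42.1% of all genes tested that rose. Acad8 and Acadsb are the isobutyryl-CoA and the short branched-chain acyl-CoA dehydrogenases, and rose by 2.08 (SE 0.10) and 2.27 (SE 0.09). The difference in their ratio did not pass the test (-0.19, -0.34 to 0.06 in the 4 animals; exact permutation test, adjusted p = 0.0952). Hibch and Hibadh, which encode the hydrolase and the dehydrogenase of hydroxyisobutyrate in valine breakdown, rose by 2.42 (SE 0.07) and 3.35 (SE 0.07). Hibadh led the group, with 26.5, 24.7, 24.7 and 23.9 FPKM in input and 140, 148, 147 and 136 FPKM in HA IP. These libraries were tightly grouped on both sides. Aldh6a1, the methylmalonate semialdehyde dehydrogenase gene, rose by 2.68 (SE 0.13), and Hsd17b10, an X-linked gene for a dehydrogenase of isoleucine breakdown that is also a part of mitochondrial RNase P, rose by 2.58 (SE 0.10).

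**Figure D2:**
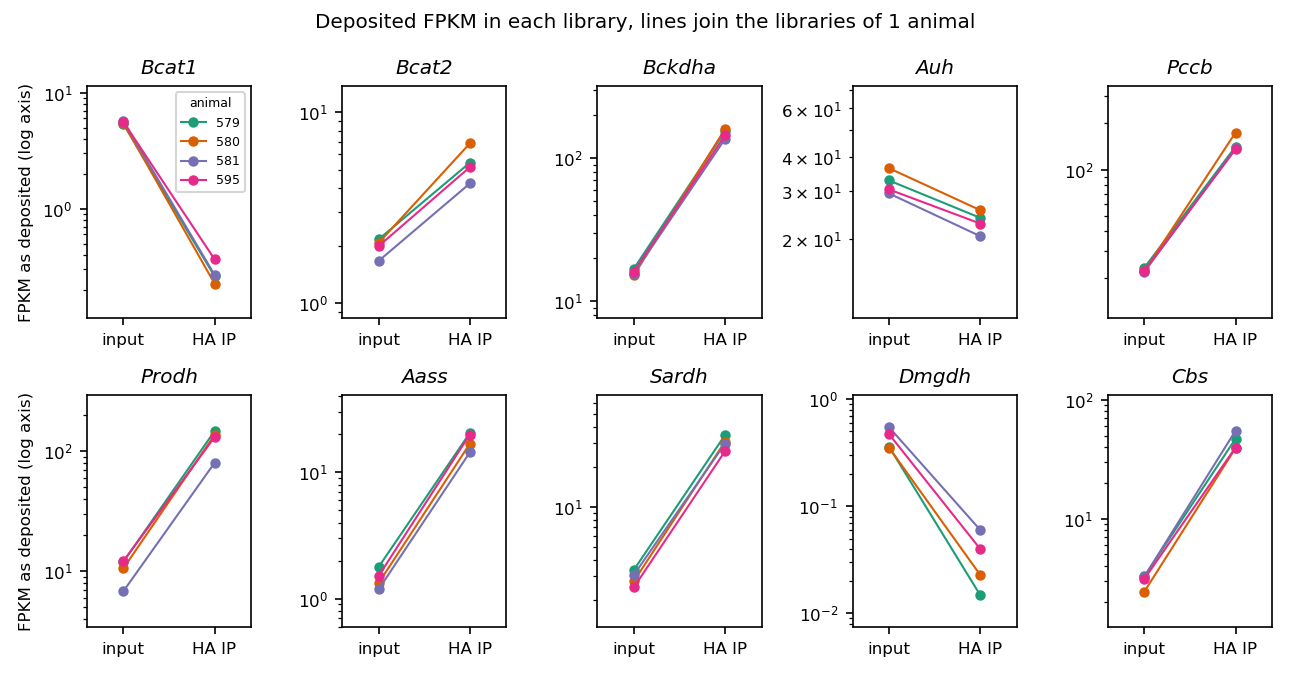
Deposited FPKM of 10 of the genes in each of the 8 libraries, on log axes whose range differs between panels; each line joins the input and HA IP libraries of 1 animal. Lines fall for Bcat1, Auh and Dmgdh and rise for the other 7, and animal 581 is lowest in Prodh on both sides.

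Propionyl-CoA, the end product of valine and isoleucine, is carboxylated by Pcca and Pccb, epimerised by Mcee and rearranged to succinyl-CoA by the cobalamin-dependent mutase Mut. All 4 genes rose, beside 42.1% of all genes tested. Pccb, the beta subunit gene, had 23.2, 22.1, 21.9 and 22.2 FPKM in input and 141, 174, 137 and 136 FPKM in HA IP, a rise of 3.54 (SE 0.10). Pcca, the biotin-bearing alpha subunit gene, rose by 2.26 (SE 0.10), from 9.18 ± 0.71 to 24.9 ± 2.4 FPKM (SD, n = 4). The log2 ratio of Pcca to Pccb differed by -1.28 between HA IP and input (-1.46 to -1.18 in the 4 animals; exact permutation test, adjusted p = 0.0408). Mut rose by 2.70 (SE 0.21) and Mcee by 1.78 (SE 0.14), the smallest rise of the route. Oxct1, whose product activates acetoacetate for use as fuel, rose by 2.11 (SE 0.08), from 81.9 to 95.6 FPKM across inputs to 203 to 224 FPKM across HA IP libraries.

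Proline oxidation was among the most enriched routes. Prodh, the first enzyme of proline breakdown, had 11.96, 10.5, 6.80 and 12.1 FPKM in input and 147, 137, 79.9 and 131 FPKM in HA IP. The value of animal 581 was the lowest in both groups. Within an animal the log2 ratio was lowest in 595, at 4.20, and highest in 580, at 4.57. The log2 fold change was 4.40 (SE 0.23, adjusted p = 4.88e-08), or 21.1-fold. Aldh4a1, which takes the next step to glutamate, rose by 3.55 (SE 0.16), from 6.44 ± 0.96 to 43.1 ± 8.0 FPKM (SD, n = 4). Prodh exceeded Aldh4a1 in its rise by 0.85 on the log2 scale (0.64 to 0.98 in the 4 animals; exact permutation test, adjusted p = 0.0408).

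All 4 lysine genes rose, beside 42.1% of all genes tested. Aass, the bifunctional enzyme that opens the main lysine pathway, had 1.78, 1.33, 1.18 and 1.51 FPKM in input and 20.4, 16.8, 14.4 and 19.9 FPKM in HA IP, a rise of 4.34 (SE 0.15) or 20.3-fold. Aldh7a1, the aminoadipate semialdehyde dehydrogenase gene, rose by 3.95 (SE 0.11), from 9.76 ± 0.77 to 85.6 ± 10.7 FPKM (SD, n = 4). The difference in the ratio of Aass to Aldh7a1 did not pass the test (0.42, 0.34 to 0.60 in the 4 animals; exact permutation test, adjusted p = 0.0714). Gcdh, the glutaryl-CoA dehydrogenase further down, rose by 2.43 (SE 0.10). Pipox, which oxidises pipecolate and sarcosine, is a low gene with 15 fragments in its lowest library. It had 0.239, 0.3998, 0.628 and 0.370 FPKM in input and 2.14, 2.21, 2.72 and 1.84 FPKM in HA IP, and rose by 2.96 (SE 0.22), or 1.61 with a pseudocount of 1.

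Of the dehydrogenases of the methylated glycines, Sardh rose and Dmgdh was barely detected in HA IP. Dmgdh and Sardh encode related flavoproteins that remove the methyl groups of dimethylglycine and sarcosine in turn and pass them to folate. Sardh (chr2:27188393-27248332) had 3.36, 2.76, 3.08 and 2.48 FPKM in input and 34.6, 30.9, 29.9 and 26.2 FPKM in HA IP, a rise of 4.16 (SE 0.12, adjusted p = 8.19e-10) or 17.9-fold. Dmgdh (chr13:93674436-93752823) had 0.360, 0.353, 0.548 and 0.472 FPKM in input and 0.0148, 0.0228, 0.0601 and 0.0399 FPKM in HA IP. Both groups were low. Dmgdh reached the minimum for testing in the 4 input libraries and in 0 of the HA IP libraries. It could thus be tested only as a gene higher in input. That the groups did not overlap was set by the filter, and the fold change is given with no test. That log2 fold change was -1.54, with -2.68 at a pseudocount of 0.01 and -0.34 at one of 1. Counted as fragments, the HA IP libraries held 17 and the inputs 210, a share 12.9-fold lower on the deposited scale. These sums pool the 4 animals and are a description only. The gene AW495222, whose span overlaps that of Dmgdh in RefSeq, went from 3.44 ± 0.37 to 0.217 ± 0.061 FPKM (SD, n = 4). The libraries were made with a stranded kit, but whether the counting used strand is not given in the sources used, and its part in the Dmgdh value was not tested. The log2 ratio of Sardh to Dmgdh was 5.32 higher in HA IP and 3.47 higher with a pseudocount of 1. It is a description only, since the HA IP values of Dmgdh lie below the pseudocount of 0.1.

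The upstream window of Dmgdh is given in the same way, because it was the other member lower in HA IP; its start is the edge of the gene's span.
Dmgdh: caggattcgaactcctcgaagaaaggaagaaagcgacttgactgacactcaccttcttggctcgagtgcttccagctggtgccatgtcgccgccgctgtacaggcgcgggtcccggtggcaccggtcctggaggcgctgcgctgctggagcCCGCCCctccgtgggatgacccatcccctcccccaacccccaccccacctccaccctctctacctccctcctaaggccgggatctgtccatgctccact
The Dmgdh window (chr13:93674186-93674435, plus strand) had 1 GC box match, a motif that 32.7% of all windows hold, and 16 CpG dinucleotides, against a median of 6 over all windows.

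Every gene of the sulfur group rose, beside 42.1% of all genes tested. Cbs, which makes cystathionine from homocysteine and can release hydrogen sulfide, had the largest rise of the 33 genes: 3.25, 2.42, 3.23 and 3.10 FPKM in input and 47.0, 39.2, 55.0 and 39.6 FPKM in HA IP. Its log2 fold change after scaling was 4.69 (SE 0.13, adjusted p = 7.53e-10), or 25.8-fold, above 99.7% of all genes tested. On the deposited scale it was 3.86. Cth, the cystathionine lyase that completes the transfer of sulfur to cysteine, rose by 4.11 (SE 0.19), from 1.91 ± 0.37 to 19.7 ± 4.3 FPKM (SD, n = 4). The difference in the ratio of Cbs to Cth did not pass the test (0.57, 0.26 to 0.86 in the 4 animals; exact permutation test, adjusted p = 0.114), but passed with a pseudocount of 1, at 0.70. The window upstream of Cbs (chr17:31637206-31637455, minus strand), shown because this gene led the set, ends at a start 28 bases inside the gene's span. It held 2 GC box matches, 2 CCAAT matches and 1 E-box match, the latter found in 6.02% of all windows.
Cbs: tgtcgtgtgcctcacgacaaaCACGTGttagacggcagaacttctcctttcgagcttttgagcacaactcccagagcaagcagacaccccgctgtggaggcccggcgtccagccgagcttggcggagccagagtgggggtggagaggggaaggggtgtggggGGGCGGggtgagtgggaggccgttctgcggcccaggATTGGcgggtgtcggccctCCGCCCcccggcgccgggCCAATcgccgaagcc
Mpst, which draws sulfur from mercaptopyruvate, rose by 3.26 (SE 0.13). Downstream, Ethe1, the persulfide dioxygenase gene, rose by 1.96 (SE 0.08), with 6.18, 5.58, 5.68 and 5.59 FPKM in input and 13.5, 12.9, 12.4 and 12.2 FPKM in HA IP. Suox, the sulfite oxidase gene, rose more, by 3.60 (SE 0.07), with 4.54, 4.40, 3.85 and 4.03 FPKM in input and 29.8, 28.8, 29.9 and 28.5 FPKM in HA IP. Values within each group were close together for both genes. The log2 ratio of Ethe1 to Suox differed by -1.64 between HA IP and input (-1.81 to -1.49 in the 4 animals; exact permutation test, adjusted p = 0.0408).

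**Figure D3:**
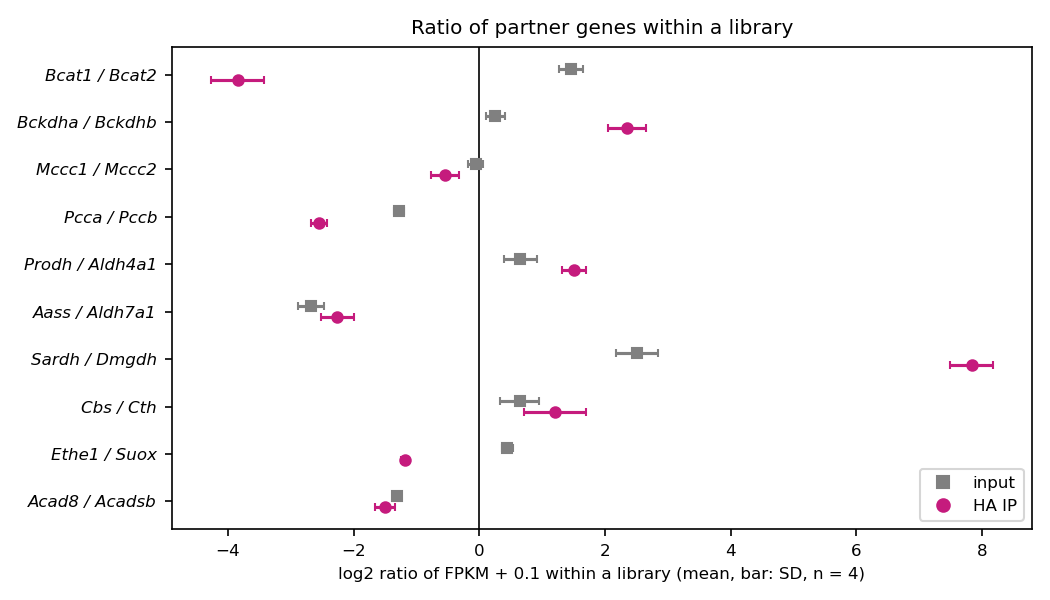
Log2 ratio of partner genes (first gene over second, deposited FPKM + 0.1) within a library, as mean and SD of 4 input (squares) and 4 HA IP (circles) libraries. Where a point lies depends on the gene lengths in the FPKM, and only the shift between the symbols compares the groups; Bcat1 / Bcat2 and Sardh / Dmgdh shift by more than 5 units.

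Across the 10 partner pairs, compared within libraries so that the scaling between libraries largely cancels, 6 differed by the exact permutation test, for which 0.0286 is the smallest unadjusted p that 4 against 4 libraries allow. Aass with Aldh7a1, Cbs with Cth, and Acad8 with Acadsb did not pass, and Sardh with Dmgdh is given with no test, although the adjustment is over all 10. That test treats the libraries as unpaired. With the animals paired (exact sign-flip permutation test), none of the 10 passed: the adjusted p was 0.139 for the 6, and with 4 animals the smallest unadjusted p is 0.125.

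The log2 ratio of HA IP to input, taken within each animal, varied by 0.12 (Auh) to 0.92 (Mccc1) between the highest and the lowest animal, with a median of 0.35 over the 33 genes and 0.45 over all genes tested. A feature seen only after the values were inspected was the position of animal 581. After scaling, 15 of the 33 genes were lowest in animal 581 in both the input and the HA IP group, beside 14.6% of all genes tested. Of the inputs alone 22 were lowest there, beside 35.5%, and of the HA IP libraries alone 17, beside 28.8%. Among the 15 were Mut, Prodh, Aldh4a1, Aass, Mccc2 and Cth. Mut, for example, had 7.88 FPKM in the input of animal 581 and 11.3 to 12.2 in the other inputs, and 26.3 FPKM in its HA IP library and 42.7 to 46.5 in the others. The median log2 distance of animal 581 from the other animals was -0.19 in input and -0.17 in HA IP over the 33 genes, and -0.03 and -0.00 over all genes. The pattern was not uniform: Pipox, Dmgdh and Hsd17b10 were highest in animal 581 in both groups, and Bckdhb, Dbt and Cbs in HA IP. All calls of the 33 genes stayed the same without this animal. Sex, litter or dissection could not be compared with this pattern, since the labels do not give them by animal.

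**Figure D4:**
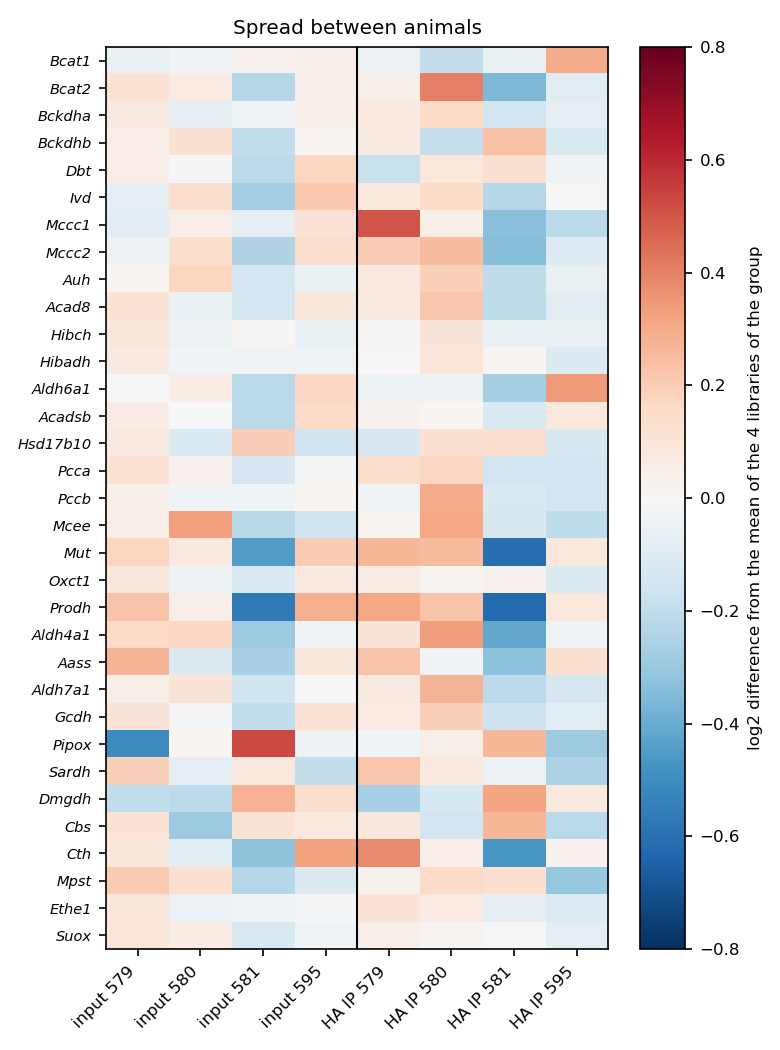
Log2 difference of each library from the mean of the 4 libraries of its group (TMM-scaled FPKM + 0.1) for the 33 genes, inputs left and HA IP right of the line. Blue cells, values under the group mean, are common in the columns of animal 581 on both sides, most deeply for Mut and Prodh.

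Genes around these enzymes moved in both directions. Of 62 related genes listed by function, 51 were tested. Of these, 37 rose and 9 fell, beside 42.1% and 41.2% of all genes tested. The median log2 fold change of the 51 was 1.21. Without the scaling 28 rose and 15 fell, beside 23.3% and 61.6% of all genes. The same shares stand beside every list below, and counts near them are no result about a list. Aadat reached the minimum for testing only in HA IP and Bhmt2 only in input, so the direction of these 2 calls was set by the filter. The 6 later steps of branched-chain and ketone body metabolism all rose, led by Hadh, a hydroxyacyl-CoA dehydrogenase gene, at 4.31 (SE 0.07). So did the 3 genes of the electron transfer flavoprotein and its oxidoreductase, which accept electrons from the acyl-CoA dehydrogenases above, with Etfb at 4.04 (SE 0.12). Regulators and carriers of the branched-chain pathway were mixed: 5 of 8 rose and 2 fell, with 3 and 3 on the deposited scale. Bckdk, the kinase that switches the dehydrogenase off, rose by 1.19 (SE 0.09), and Ppm1k, the phosphatase that switches it on, had 0.58 (SE 0.12) but fell by 0.26 on the deposited scale. Among amino acid transporter genes, the heavy chain Slc3a2 rose by 2.99 (SE 0.10). Slc7a8, a light chain partner of it, fell by 3.05 on the log2 scale (SE 0.14). It had 20.3 to 27.4 FPKM in input and 1.23 to 1.88 FPKM in HA IP. The transporter gene Slc7a5 of the same list rose by 1.21 (SE 0.23), but had 0.37 without the scaling, not past the threshold. The mitochondrial branched-chain carrier gene Slc25a44 fell by 0.35 (SE 0.11).

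Cofactor supply was mixed too, and with a pseudocount of 1 the falls named here were smaller, at -0.45 for Mtr and -0.14 for Pycr1. Of 11 genes of biotin and cobalamin handling, 8 rose and 1 fell, with 6 and 3 on the deposited scale. Btd, which recycles the biotin that Pcca and Mccc1 carry, rose by 4.12 (SE 0.10), and Mtr, the methionine synthase gene, fell by 0.68 (SE 0.11). Of 5 tested genes of proline and ornithine synthesis, 4 rose and 1 fell, with 3 and 1 on the deposited scale. Oat rose by 3.76 (SE 0.10) and Pycr1 had -0.40 (SE 0.14, adjusted p = 0.0258). The call of Pycr1 was lost without the input or HA IP library of animal 580 or 595, or without animal 579, 580 or 595 (adjusted p = 0.0552 to 0.128). Of 6 partners in cysteine and sulfide handling, 4 rose and 2 fell, with 3 and 2 on the deposited scale. Tst, the thiosulfate sulfurtransferase gene, rose by 5.26 (SE 0.11), while Ado, a thiol dioxygenase gene, and Tstd3 fell by 1.25 (SE 0.10) and 0.83 (SE 0.17). Later lysine and tryptophan steps gave 2 rises and 2 falls among 5 tested, with 2 and 3 on the deposited scale. Of the rises, Aadat was tested only through HA IP, with 12 to 54 fragments there and 2 to 7 in input. Sugct, which activates glutarate, rose by 4.53 (SE 0.13), and Crym, a ketimine reductase gene, fell by 1.98 (SE 0.24). Of 5 tested choline and betaine genes 3 rose and 1, Bhmt2, fell, while on the deposited scale none was higher and 3 were lower. Ahcy, the adenosylhomocysteinase gene, rose by 1.01 (SE 0.13) after scaling and had 0.20 without it. Bhmt2, a homocysteine methyltransferase gene tested only through input, had 13 to 23 fragments there and 0 to 3 in HA IP. The liver-type genes of tyrosine and histidine breakdown were mostly below the minimum, with 2 of 8 tested, Fah rising by 2.88 (SE 0.17) and Gstz1 by 1.83 (SE 0.11).

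**Figure D5:**
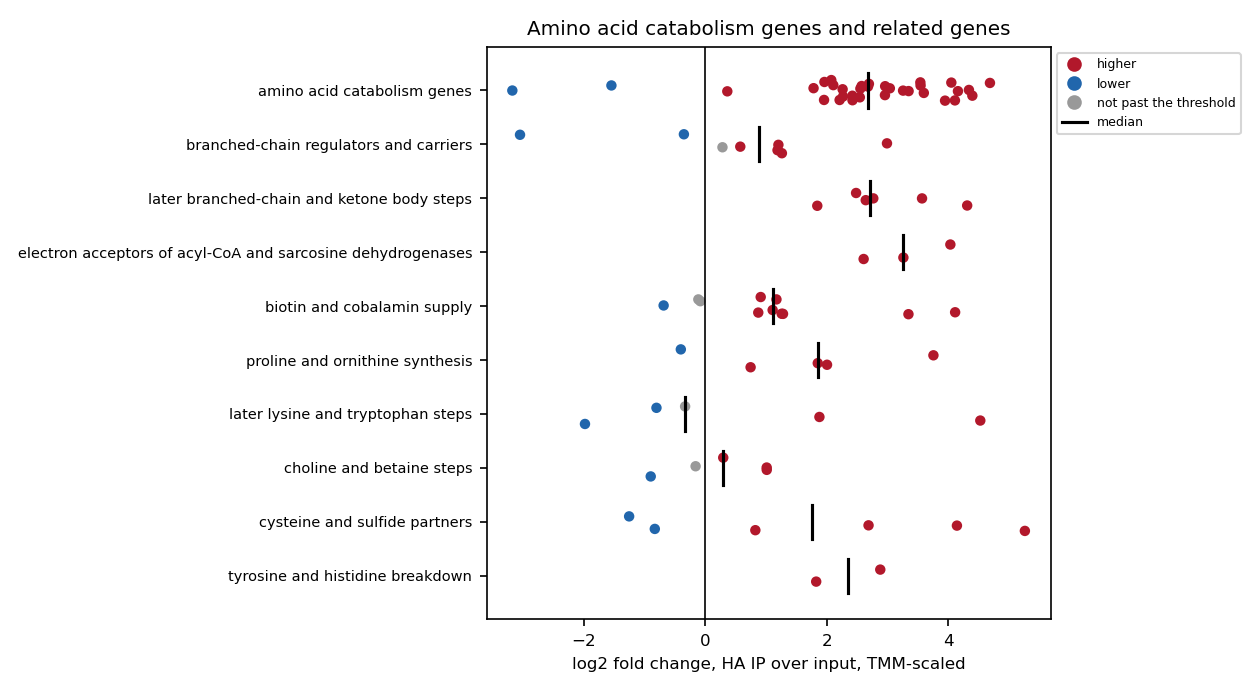
Log2 fold change of HA IP over input (TMM-scaled) for the 33 genes and for 9 lists of related genes that passed the minimum, with vertical lines at list medians; colour gives the call. The 33 genes lie to the right except for Bcat1 and Dmgdh, whereas lists of regulators, carriers, cofactor supply and later lysine steps lie on both sides of 0.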

How the data were processed

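RNA was sequenced from 4 input and 4 HA IP libraries, grouped by their titles. Per the submitters' processing notes, bcl2fastq 2.17, STAR, HTSeq and mm10 were used; their other versions, the annotation and the strand setting are not given in the sources used. The deposited values were read as FPKM, since all 20045 genes with a value above 0 gave whole fragments (within 0.001) at 1 length per gene and 1 total per library. The lengths in the FPKM (693 to 15663 bases for the 33 genes) may combine transcripts, so levels are not compared between genes.

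The test took genes with 15 fragments in all and with 0.246 CPM (10 fragments at the median depth) in 4 or more libraries. In 27 rows the symbol had become a date; none is a gene named here. FPKM were divided by TMM factors (0.3 of M-values and 0.05 of A-values trimmed at either end, no weights) and compared on log2(FPKM + 0.1) with limma 3.58.1 in R 4.3.3 with an intensity trend. SE are from that fit, which did not use the pairing by animal. The fit was also run on simulated data in which few genes changed, as many up as down. That run cannot show how the scaling behaves where most genes are called, as here. SD are of deposited FPKM, or of log2 ratios for pairs. Pairs were compared on log2(FPKM + 0.1) as deposited with exact permutation tests in Python 3.11.15. Libraries of 1 animal deviated together (correlations of 0.22 to 0.40 for the same number, at most 0.11 otherwise), so the numbers, which name the animals, pair the samples.

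The 33 genes, the related genes, markers and pairs were chosen with earlier results of these data known. Named related genes are, per list, the called members with the largest rise and fall and up to 3 called against the majority. Bckdk, Ppm1k, Dld, Slc7a5 and Gstz1 were added for their function after values were seen. Of the 33 genes and the related genes, those that reached the minimum in 1 group only are named, with their values. Gene spans and windows are from RefSeq (GRCm38.p6), where Mut is listed as Mmut. Windows were looked up by the symbols used here and found for 29 of 33, so that of Mut may have been missed by name. For 18 genes the span overlaps another gene. Alternatives are given at the end.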

Additional observations from a re-analysis of the deposited data

Results flagged for a closer look

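Of 66 combinations of gene and group checked, 2 had a library whose gap to its nearest neighbour took up more of the group's log2 range than Dixon's 95% critical value for 4 samples allows; chance alone flags about 1 group in 20. Hibadh in input was highest in animal 579, at 26.5 FPKM against 23.9 to 24.7 in the others, with a gap of 0.863 of the range. Cbs in input was lowest in animal 580, at 2.42 FPKM against 3.10 to 3.25, with a gap of 0.923 of the range.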

How the results depend on the processing

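The calls of the 33 genes were 31 higher and 2 lower with pseudocounts of 1 and 0.01, no filter, a filter of 1 CPM, no intensity trend, the replicate block by animal, and each library or animal left out. The block changed no call of the 33 genes and left their median at 2.68. On the deposited scale the median was 1.84, Auh reversed to -0.47, and 3643 genes in all were higher in place of 6565; with a pseudocount of 1 the median was 2.52. Leaving out libraries or animals gave medians of 2.61 to 2.77, and 6208 to 6725 genes higher and 5986 to 6665 lower in all. With a pseudocount of 1, Aass over Aldh7a1 reversed to -0.064 (exact permutation test, adjusted p = 0.686) and Cbs over Cth passed, at 0.70 (adjusted p = 0.0357). TMM-scaled FPKM, an alternative added after the data were seen, changed no call among the 10 pairs. With sign flips within animals, as a replicate block, the pair differences kept their values, for example -5.31 for Bcat1 to Bcat2, but none of the 10 passed (adjusted p = 0.139 to 0.25), since the smallest p that 4 animals allow is 0.125. For 3 genes (Pipox, Dmgdh and Cth) a library held fewer than 100 fragments, which limits their precision.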

Other observations

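The 250 bases before the first start listed in the RefSeq table were compared over genes, as a description. That start was the edge of the gene's span for 17 of the 29 genes with a window and at most 93 bases inside it for all others except Bcat2 and Sardh, where it lay 1186 and 1029 bases inside. The 29 genes had a median of 12 CpG dinucleotides and a GC content of 57.6%, against 6 and 52.4% over all 32851 windows, which include noncoding genes and several starts per gene. A CCAAT match was found in 17 of the 29, beside 33.8% of all windows, and a GC box match in 14, beside 32.7%. A TATA box match was found in Bcat1 alone, far from the start, beside 12.4% of all windows. AAGGTCA was found in 0 of the 29, beside 4.08%.

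Other genes annotated within the spans of the 33 did not always move with them. Zfp575, whose span overlaps that of Ethe1, fell by 2.40 on the log2 scale (SE 0.13), and 0610005C13Rik, which overlaps Bcat2, fell by 0.87 (SE 0.27). Phax, which overlaps Aldh7a1, rose by 1.52 (SE 0.08).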
